A study of Mus musculus with 6 samples.

Results

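The proteins that copy, transcribe and stabilise the mitochondrial genome are all encoded in the nucleus. Expression of 10 such genes was examined in whole retina after saline or microbead injection: *Tfam*, *Tfb2m* and *Polrmt* (transcription initiation), *Tfb1m* (ribosomal RNA methylation), *Polg* (DNA replication), *Lrpprc*, *Slirp* and *Pnpt1* (RNA stability and decay), and the nuclear regulators *Ppargc1a* and *Nrf1*. The genes were chosen by name for these roles, and all 10 of the 31169 genes in the count table that bear these names were found. Each passed the filter on low counts, which left 17707 genes for testing.

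Libraries came from 3 saline-injected and 3 microbead-injected retinas of C57BL/6 mice, given 1 μl (the volume in the labels) of saline or of 15 μm polystyrene microbeads into the anterior chamber at 1 month of age and examined 4 weeks later, at 2 months. Both groups were of the same strain and age, were male per the study's methods, and carried no transgene. Beads obstruct aqueous outflow and raise intraocular pressure (IOP), the main risk factor for glaucoma, and saline served as the control. The methods state that both eyes were injected. The labels do not say whether the retinas came from separate mice, so p-values measure the spread between these retinas only.

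Total counts were 36085737 to 46481382 in saline and 13574949 to 19834366 in microbead libraries. In the sample descriptions the library identifiers of the saline group belong to one series and those of the microbead group to another, and any effect of the series cannot be told apart from the effect of injecting beads. Marker genes of rods, cones, bipolar, amacrine, horizontal, retinal ganglion (RGC) and Müller glial cells were counted in every library. The summed normalized count (CPM, counts scaled to a fixed library size) was compared for 15 lists of cell type markers. It did not overlap between the groups for 3: horizontal cells (97.6 to 149 in saline, 54.0 to 93.0 in microbead), endothelium (210 to 292, and 116 to 162) and astrocytes (35.2 to 53.0, and 55.0 to 65.6). Of all single tested genes, 37.8% did not overlap. At an adjusted p under 0.05 from edgeR, 1 of 4 horizontal and 3 of 6 endothelial genes were lower, and 0 of 3 astrocyte genes were called. Lens genes reached 244 CPM in saline replicate 3, against 1.41 to 19.6 in the other saline and 0.867 to 1.62 in the microbead libraries. Pigment epithelium genes were at 11.1, 53.1 and 230 CPM in saline replicates 1, 2 and 3, and at 98.0 to 118 CPM in the microbead libraries. RGC genes were lowest, at 369 CPM, in saline replicate 1. In whole retina, fewer cells of a type and less RNA per cell cannot be told apart, and the part of these cell types in the results was not tested.

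Mitochondrial DNA is transcribed by a single-subunit polymerase, encoded by *Polrmt*, that needs TFAM to bend and package the promoter DNA and TFB2M to open it. The long transcripts are cut into messenger, ribosomal and transfer RNAs, after which LRPPRC and SLIRP hold the messenger RNAs in a stable form and polynucleotide phosphorylase, the product of *Pnpt1*, degrades RNA. In the nucleus, nuclear respiratory factor 1 (*Nrf1*, not to be confused with the *Nfe2l1* product of similar nickname) and factors of the ETS family bind the promoters of many of these genes, and the coactivator PGC-1α (*Ppargc1a*) works through them and through estrogen-related receptors. Photoreceptors, which make up most retinal cells, and the unmyelinated axons of RGCs are rich in mitochondria.

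Because the list holds both a regulator and genes known as its targets, the promoters were searched for the letters of the sites (RefSeq windows of GRCm38.p6, 250 bases before to 50 after each start, with 10 of 10 genes matched). The stretches from 150 bases before the start to 10 bases from it on are shown for the 3 genes that rose, for *Tfam* and for *Polrmt*, the single gene with an NRF1 match. Capitals mark matches on either strand to GCGCA, any base, then GCGC (NRF1) and CCGGAAG (ETS).
Pnpt1 (chr11:29130594-29130753, forward strand): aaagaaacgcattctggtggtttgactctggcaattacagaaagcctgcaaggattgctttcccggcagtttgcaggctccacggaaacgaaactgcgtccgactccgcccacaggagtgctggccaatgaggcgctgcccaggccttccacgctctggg
Slirp (chr12:87443746-87443905, forward strand): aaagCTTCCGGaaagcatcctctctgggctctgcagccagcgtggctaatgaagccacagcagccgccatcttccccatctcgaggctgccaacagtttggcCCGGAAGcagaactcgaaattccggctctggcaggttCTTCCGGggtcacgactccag
Tfb2m (chr1:179546267-179546426, reverse strand): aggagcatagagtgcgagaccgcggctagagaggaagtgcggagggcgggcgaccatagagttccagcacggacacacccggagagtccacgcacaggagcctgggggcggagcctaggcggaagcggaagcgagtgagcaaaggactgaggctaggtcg
Tfam (chr10:71238035-71238194, reverse strand): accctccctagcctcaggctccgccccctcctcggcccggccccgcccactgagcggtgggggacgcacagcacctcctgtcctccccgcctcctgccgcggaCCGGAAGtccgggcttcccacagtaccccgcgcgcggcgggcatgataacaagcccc
Polrmt (chr10:79746572-79746731, reverse strand): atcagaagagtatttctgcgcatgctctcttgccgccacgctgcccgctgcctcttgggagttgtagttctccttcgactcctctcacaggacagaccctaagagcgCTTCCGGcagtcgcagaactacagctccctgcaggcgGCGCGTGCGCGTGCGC

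The NRF1 letters were found in 1 of the 10 genes, *Polrmt*, as a pair of matches that share letters and lie across the start. They were in 4.60% of all 32851 windows searched, which leave out 1 chromosome, and in 8.58% of those of tested genes. ETS letters were found in 4 genes, *Tfam*, *Polrmt*, *Polg* and *Slirp*, with 3 matches in *Slirp*, against 8.86% of all windows and 14.8% of those of tested genes. The letters of an estrogen-related receptor site, AAGGTCA on either strand, were found in 0 of the 10, against 4.72% of all windows and 3.39% of those of tested genes. Of the 3 genes that rose, *Slirp* alone held ETS letters, and *Pnpt1* and *Tfb2m* held none of the 3 motifs in these windows. Only exact letters were searched, so a site with other letters would be missed, and a gene without a match may still hold one.

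After microbead injection, 3 of the 10 genes were higher past the threshold (adjusted p under 0.05 by edgeR's quasi-likelihood test, after Benjamini-Hochberg adjustment over 17707 genes) and 0 were lower. *Pnpt1* rose 2.29-fold, *Slirp* 1.76-fold and *Tfb2m* 1.66-fold. *Tfam* was at 0.683 times its saline level and did not pass the test, and the regulators *Ppargc1a* and *Nrf1* were near their saline levels. Of all tested genes, 12.8% were called, 6.46% as higher and 6.31% as lower. The 3 higher calls are 3 of 10, read against 6.46%. At an unadjusted p under 0.05 there were 4 of the 10, *Tfam* being the 1 lower gene, against 31.4% of all tested genes. The groups did not overlap for 5 of the 10, 4 higher and 1 lower, against 37.8% of all tested genes (18.8% higher and 18.9% lower). The median log2 fold change was 0.15 over the 10 and -0.03 over all tested genes.

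The calls depended on single libraries. Without saline replicate 1, edgeR called 3 of the 10, without saline replicate 3 it called 1 (*Pnpt1*), and without saline replicate 2 or any 1 of the microbead libraries it called 0, with 3 to 5 at an unadjusted p under 0.05 in these fits. Over all genes those fits called 46 (without microbead replicate 3) to 2621, against 2261 with the 6 libraries. On all 6 libraries, DESeq2 and limma-voom each called 3, while edgeR called 2 without the filter on low counts and 2 with an offset for GC content and length, *Tfb2m* being lost in both.

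**Figure D1:**
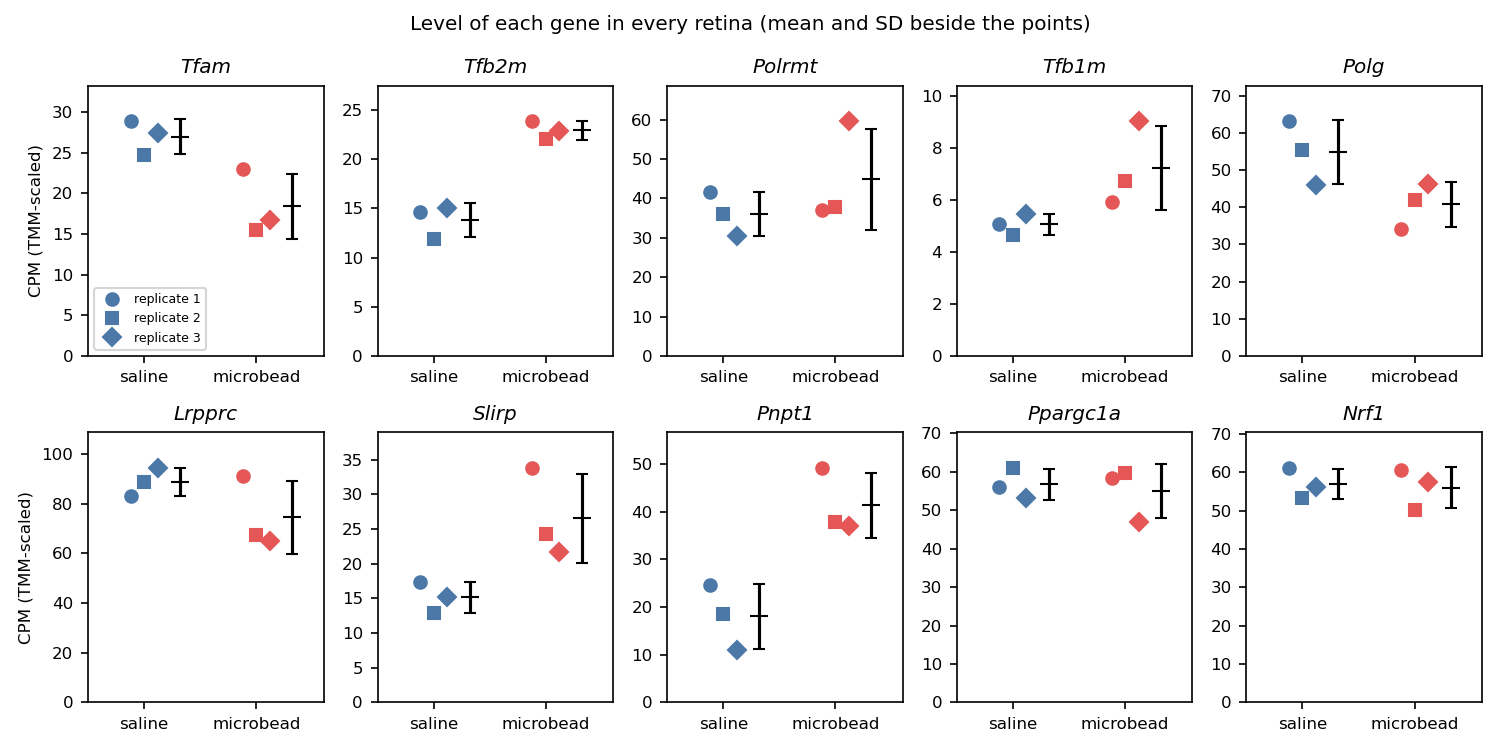
Level of each of the 10 genes (CPM on the TMM-scaled library size, linear axes from 0) in the 3 saline-injected (blue) and 3 microbead-injected (red) retinas, with a symbol per replicate and the mean and SD in black. The groups lie apart for *Tfb2m*, *Slirp*, *Pnpt1* and *Tfb1m*, with microbead higher, and for *Tfam*, with microbead lower.

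Among the genes of transcription initiation, *Tfb2m*, whose product opens the mitochondrial promoters, was measured at 14.6, 11.9 and 15.0 CPM in the saline and 23.9, 22.0 and 22.9 CPM in the microbead retinas. The microbead values had a coefficient of variation of 4.05%, and all lay above the highest saline value. Its log2 fold change, 0.73 with a standard error of 0.19, passed the threshold (adjusted p = 0.0370 from edgeR). The adjusted p was 0.0535 without the filter on low counts and 0.0576 once GC content and length were corrected for by an offset, and in 5 of the 6 fits that left out a library it was over 0.05 (0.0440 to 0.168 over the 6). Of the 100-base stretches of its transcripts, 28.6% also occur in *Gm1818*, an annotated pseudogene on another chromosome, so that reads of the shared part may be split between them. *Gm1818* was at 0.558, 0.415 and 0.399 CPM in the saline and 0.206, 0.0722 and 0.390 CPM in the microbead retinas (log2 fold change -1.01, adjusted p = 0.335 from edgeR). It had 1 to 21 counts per library, against 305 to 572 for *Tfb2m*.

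*Tfam*, whose product packages mitochondrial DNA and activates its promoters, was lower in each microbead retina than in any saline retina. It was at 28.9, 24.7 and 27.4 CPM in the saline and 23.0, 15.5 and 16.8 CPM in the microbead retinas. The highest microbead value, in replicate 1, lay just under the lowest saline value. The log2 fold change was -0.55 (standard error 0.20, 95% interval -1.01 to -0.09) and did not pass the threshold (adjusted p = 0.102 from edgeR, 0.0592 to 0.128 over 10 alternatives with all libraries). *Tfb2m* and *Tfam* were chosen as a pair after their values were seen, and their ratio is given as a description: log2 *Tfb2m* to *Tfam* was -0.97 ± 0.09 in the saline and 0.34 ± 0.24 in the microbead retinas (SD, n = 3 each).

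*Polrmt*, the RNA polymerase itself, was at 41.6, 36.0 and 30.6 CPM in the saline and 37.0, 37.9 and 59.6 CPM in the microbead retinas. A single library, microbead replicate 3, lay above the saline range. The log2 fold change of 0.31 (adjusted p = 0.376 from edgeR) was 0.049 without that library. The 3 genes of the initiation machinery did not share one direction, with 1 called higher and the others not called.

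*Tfb1m*, a paralog of *Tfb2m* that methylates the small-subunit ribosomal RNA, was the least abundant of the 10. It was at 5.07, 4.67 and 5.48 CPM in the saline and 5.92, 6.72 and 9.03 CPM in the microbead retinas. The groups did not overlap, although replicate 3 set much of the distance. The log2 fold change of 0.51 (standard error 0.27, 95% interval -0.11 to 1.12) was not past the threshold (adjusted p = 0.237 from edgeR). The log2 ratio of *Tfb2m* to *Tfb1m* was 1.44 ± 0.09 in the saline and 1.69 ± 0.33 in the microbead retinas (SD, n = 3 each), a difference of 0.25 that was within the spread between retinas (two-sided exact permutation test, p = 0.4). It was 0.087 without microbead replicate 1 and 0.42 without microbead replicate 3.

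*Polg*, the catalytic subunit of the mitochondrial DNA polymerase, was at 63.1, 55.4 and 46.0 CPM in the saline and 34.2, 42.0 and 46.2 CPM in the microbead retinas. The groups met at saline replicate 3 and microbead replicate 3. Its log2 fold change was -0.43 (standard error 0.19, 95% interval -0.86 to 0.003) and did not pass the threshold (adjusted p = 0.162 from edgeR). Of its exon bases, 8.57% are also exons of *Fanci* on the opposite strand, which was at 5 to 44 counts per library.

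*Pnpt1*, which encodes an exoribonuclease of the mitochondrial matrix and intermembrane space, changed the most of the 10. It was at 24.7, 18.5 and 11.1 CPM in the saline and 49.3, 37.9 and 37.0 CPM in the microbead retinas. All 3 microbead values lay above the highest saline value, while the saline retinas differed among themselves with a coefficient of variation of 37.7%, the largest of the 10 genes in either group. The log2 fold change was 1.19 (standard error 0.28, 95% interval 0.56 to 1.82, adjusted p = 0.0285 from edgeR), and all 10 alternatives with the 6 libraries called it (adjusted p from 0.000292 to 0.0414). Of the 6 fits without a library, 2 called it, and its log2 fold change lay between 0.94 (saline replicate 3 left out) and 1.48 (saline replicate 1 left out). *Pnpt1* lies on the forward strand of chromosome 11 of GRCm38, from 29130744 to 29161828, its principal transcript has 28 exons and encodes 783 amino acids, and 0% of its 100-base stretches occur elsewhere.

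**Figure D2:**
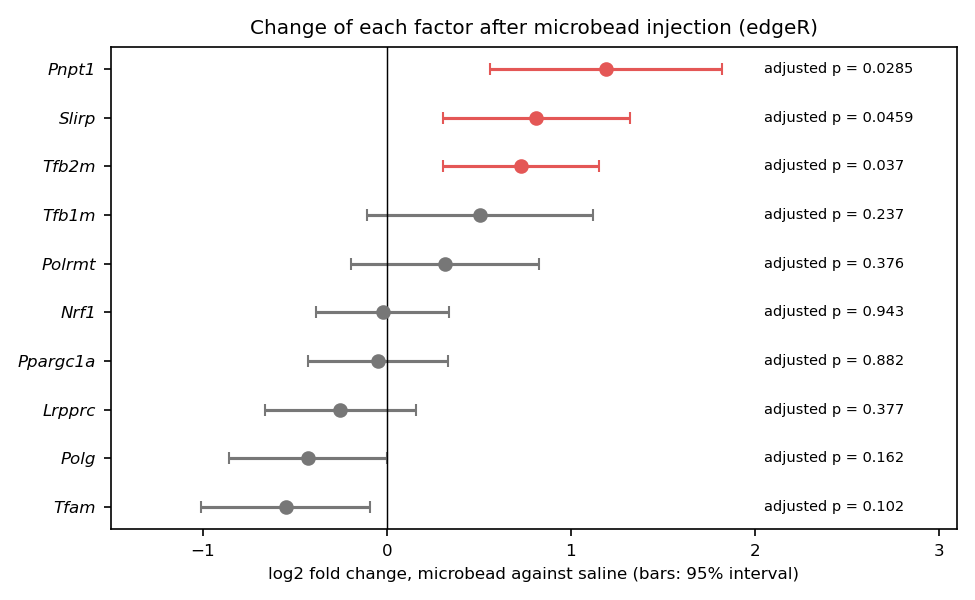
Log2 fold change of each of the 10 genes, microbead against saline, with 95% intervals and the adjusted p from edgeR. Red marks the 3 genes past the threshold, whose intervals lie between 0.30 and 1.82, and the intervals of *Nrf1* and *Ppargc1a* are centred near 0.

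*Lrpprc* and *Slirp* encode the partners of one RNA-binding complex, in which each protein is needed for the stability of the other. *Lrpprc*, the most abundant of the 10 in CPM, was at 83.1, 88.8 and 94.5 CPM in the saline and 91.2, 67.4 and 64.8 CPM in the microbead retinas, with overlap at microbead replicate 1. Its log2 fold change was -0.25 (95% interval -0.66 to 0.16, adjusted p = 0.377 from edgeR). *Slirp* was at 17.3, 12.9 and 15.3 CPM in the saline and 33.9, 24.3 and 21.6 CPM in the microbead retinas, without overlap. The log2 fold change, 0.81 with a standard error of 0.23, passed (adjusted p = 0.0459 from edgeR), as it did in 1 of the 6 fits without a library (0.0385 to 0.171).

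The log2 ratio of *Slirp* to *Lrpprc* was -2.26, -2.78 and -2.63 in the saline and -1.43, -1.47 and -1.58 in the microbead retinas. The difference of 1.06 separated the groups (exact permutation p = 0.1, two-sided, the lowest that 3 against 3 permit). It was 0.95 to 1.21 with each library left out, and 0.83 with the offset for GC content and length. Library scaling does not enter this ratio, and it was tightest in the microbead retinas (SD 0.08, against 0.27 in saline).

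*Slirp* lies on the forward strand of chromosome 12 from 87443896 to 87452206, between *Alkbh1* and *Snw1* on the reverse strand. Of the exon bases of *Slirp*, 97.8% are also exons of these neighbours, as are 79.8% of the coding bases of its principal transcript. The libraries were made with a stranded kit, and whether the counting used the strand is not given in the sources used here. Without strand, reads of *Slirp* and its neighbours cannot be told apart. *Snw1* was at 73.3, 68.7 and 90.0 CPM in the saline and 65.6, 60.7 and 52.6 CPM in the microbead retinas (log2 fold change -0.37, adjusted p = 0.182 from edgeR), and *Alkbh1* had a log2 fold change of 0.32 (adjusted p = 0.316 from edgeR) with overlap between the groups. Neither neighbour was past the threshold, and their part in the count of *Slirp* was not tested.

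**Figure D3:**
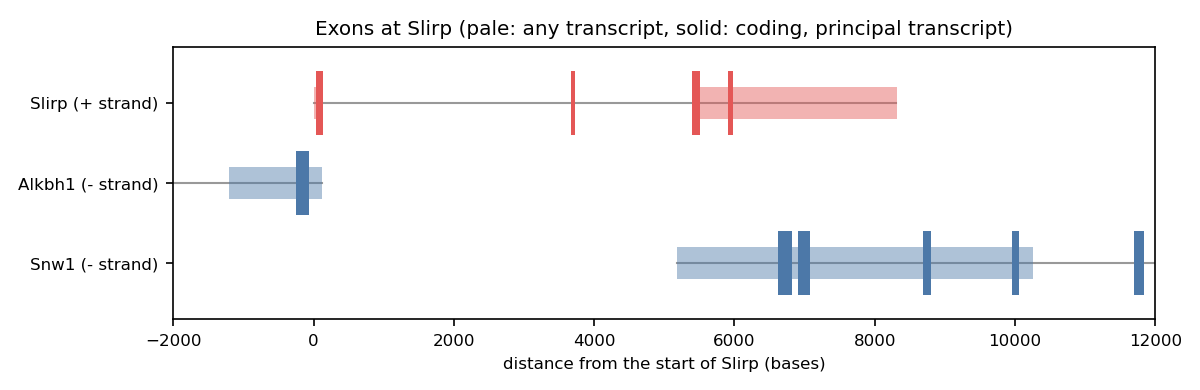
Exons of *Slirp*, *Alkbh1* and *Snw1* by distance from the start of *Slirp* in bases (GENCODE vM21), pale for exons of any transcript and solid for coding exons of the principal transcript. The first exon of *Slirp* lies over the first exon of *Alkbh1* and its last exons lie over *Snw1*, which together take 97.8% of its exon bases.

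The nuclear regulators did not pass the threshold. *Ppargc1a* was at 56.1, 61.1 and 53.2 CPM in the saline and 58.4, 59.8 and 46.8 CPM in the microbead retinas, a log2 fold change of -0.05 (95% interval -0.43 to 0.33, adjusted p = 0.882 from edgeR). *Nrf1* was at 61.2, 53.4 and 56.2 CPM in the saline and 60.5, 50.2 and 57.4 CPM in the microbead retinas, a log2 fold change of -0.02 (95% interval -0.39 to 0.34, adjusted p = 0.943 from edgeR). The values of both groups were interleaved for both genes. The sign of each depended on the processing, as *Nrf1* was 0.02 with upper-quartile scaling and, with the offset for GC content and length, *Nrf1* was 0.10 and *Ppargc1a* 0.026.

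Within the saline group the 10 genes had a median coefficient of variation of 10.2%, against 18.5% over all tested genes. Within the microbead group it was 18.0% against 20.9%. The 10 genes had at least 93 counts in each library, and the tested genes were not matched to them for level. Microbead replicate 1 held the highest microbead value of 6 of the 10 genes, among them both *Tfam*, which was lower in microbead, and *Pnpt1*, which was higher. Saline replicate 1 held the highest saline value for 6. On a scale per length (CPM per kilobase of the principal transcript), *Nrf1* was highest in saline-injected retinas at 30.3 ± 2.11, followed by *Lrpprc* at 20.2 ± 1.30, *Polrmt* at 9.60 ± 1.47 and *Ppargc1a* at 8.78 ± 0.622 (SD, n = 3). *Polg*, *Pnpt1*, *Tfam*, *Tfb2m* and *Slirp* followed between 7.0 and 5.61, each overlapping its neighbours in this order, and *Tfb1m* was lowest at 3.62 ± 0.290. *Polrmt* and *Ppargc1a* also overlapped. The first places depend on the transcript used, because with the length of all exons of a gene *Lrpprc* came first at 10.4 and *Nrf1* was at 5.53 CPM per kilobase. In microbead-injected retinas *Pnpt1* was at 15.3 ± 2.52 CPM per kilobase, above *Polrmt* at 11.9 ± 3.41 by less than their spread.

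By the Euclidean distance between profiles of log2 CPM over the 6 libraries, each centred on its mean, the nearest of 15088 genes to *Pnpt1* were *Rpain* (distance 0.222, log2 fold change 1.21) and *Glt8d1* (0.226, log2 fold change 1.10). Within the 10 genes, *Tfb2m* and *Slirp* were nearest each other (0.454), *Tfam* and *Lrpprc* were (0.459), and so were *Ppargc1a* and *Nrf1* (0.459), while *Pnpt1* and *Tfam* were farthest apart (2.38). For each gene of these 3 pairs, genes outside the list lay closer. Their nearest of the 15088 genes were at distances from 0.0468 (*Ctps* to *Tfam*) to 0.153 (*Tpp1* to *Tfb2m*).

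A wider list of 61 other genes of mitochondrial genome maintenance and expression showed movement in both directions. After microbead injection 7 were higher and 3 lower past the threshold, or 16.4% of the list against the 12.8% of all tested genes, and the median log2 fold change was 0.17. With the offset for GC content and length the balance was 7 higher and 6 lower. The count fell to 1 without saline replicate 2 or microbead replicate 3, to 2 without microbead replicate 2 and to 3 without microbead replicate 1. Genes named from each role are those with the smallest p, and further called genes are named because their values were seen.

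Among 13 genes of DNA replication and maintenance, *Ssbp1*, the single-stranded DNA-binding protein of the mitochondrial replication fork, rose from 22.8, 19.3 and 15.9 CPM to 101, 58.7 and 53.9 CPM. This was a 3.68-fold difference (log2 1.88, standard error 0.27, adjusted p = 0.00938 from edgeR), larger than that of any of the 10 genes above, and it was called in all 6 fits that left out a library. Of its 100-base stretches, 0.142% occur in another locus. *Exog*, a mitochondrial nuclease, fell by 0.81 on the log2 scale (adjusted p = 0.0376 from edgeR), and was called in 1 of the 6 fits with a library left out. The other 11 were not called, so that the group had 15.4% called. Of 5 genes of nucleotide supply, *Slc25a33*, a carrier that brings pyrimidine nucleotides into mitochondria, fell from 101, 83.2 and 96.7 to 64.6, 41.2 and 46.0 CPM (log2 -0.88, adjusted p = 0.0268 from edgeR) and was called in 3 of those 6 fits.

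Of 7 genes of transcript elongation and termination, 4 were higher past the threshold and 0 lower, or 57.1% called against 12.8% of all tested genes. All 4 belong to the MTERF family, whose members bind mitochondrial DNA or ribosomal RNA and act in termination, transcription and ribosome assembly. *Mterf1a* rose from 3.53, 4.29 and 2.65 to 12.6, 8.38 and 9.03 CPM (log2 1.51, standard error 0.30, adjusted p = 0.0181 from edgeR). *Mterf3* had a log2 fold change of 1.05, *Mterf2* of 0.96 and *Mterf4* of 0.71, with adjusted p-values from 0.0261 to 0.0457 from edgeR. *Mterf1b* (0.82) did not pass, and since 17.9% of the 100-base stretches of *Mterf1a* occur in *Mterf1b*, the division of reads between these copies is uncertain. Of the 100-base stretches of *Mterf4*, 32.7% are shared with *Sned1*, and of those of *Mterf2*, 17.2% with *Tmem263*. Both are genes that overlap them, and their part in these counts was not tested. *Tefm*, the elongation factor, was at -0.49 (adjusted p = 0.253 from edgeR). Without 1 library, each of the 4 was called in 1 to 3 of 6 fits.

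Of 15 genes of RNA processing and decay, 2 were called, a share of 13.3% near the 12.8% of all tested genes, and both were higher: *Fastk* (log2 0.77, adjusted p = 0.0293 from edgeR), whose mitochondrial form is needed for the *mt-Nd6* messenger RNA, and *Rexo2* (0.75, adjusted p = 0.0296 from edgeR), an exonuclease for the shortest RNA fragments. With a library left out, *Fastk* was called in 1 and *Rexo2* in 2 of 6 fits. *Supv3l1*, the helicase that works with polynucleotide phosphorylase, was at 30.5 and 34.2 CPM in the group means (log2 0.17, adjusted p = 0.502 from edgeR). None of 10 genes of ribosomal RNA modification was called in the main edgeR fit (3 at an unadjusted p under 0.05). The nearest was *Mettl17* (0.79, adjusted p = 0.0841 from edgeR). It was called in 2 of 10 alternatives with all libraries and in 1 of 6 fits with a library left out. Of 11 further regulators, *Yy1*, a transcription factor that acts with PGC-1α on mitochondrial genes, fell from 68.9, 59.9 and 61.1 to 36.5, 37.9 and 36.1 CPM (log2 -0.78, standard error 0.16, adjusted p = 0.0188 from edgeR, called in 3 of 6 fits with a library left out). The PGC-1α relative *Ppargc1b* (0.60, adjusted p = 0.0702) and its partner *Esrra* (-0.60, adjusted p = 0.0586) lay on opposite sides, each without overlap between groups, and neither passed edgeR's threshold.

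**Figure D4:**
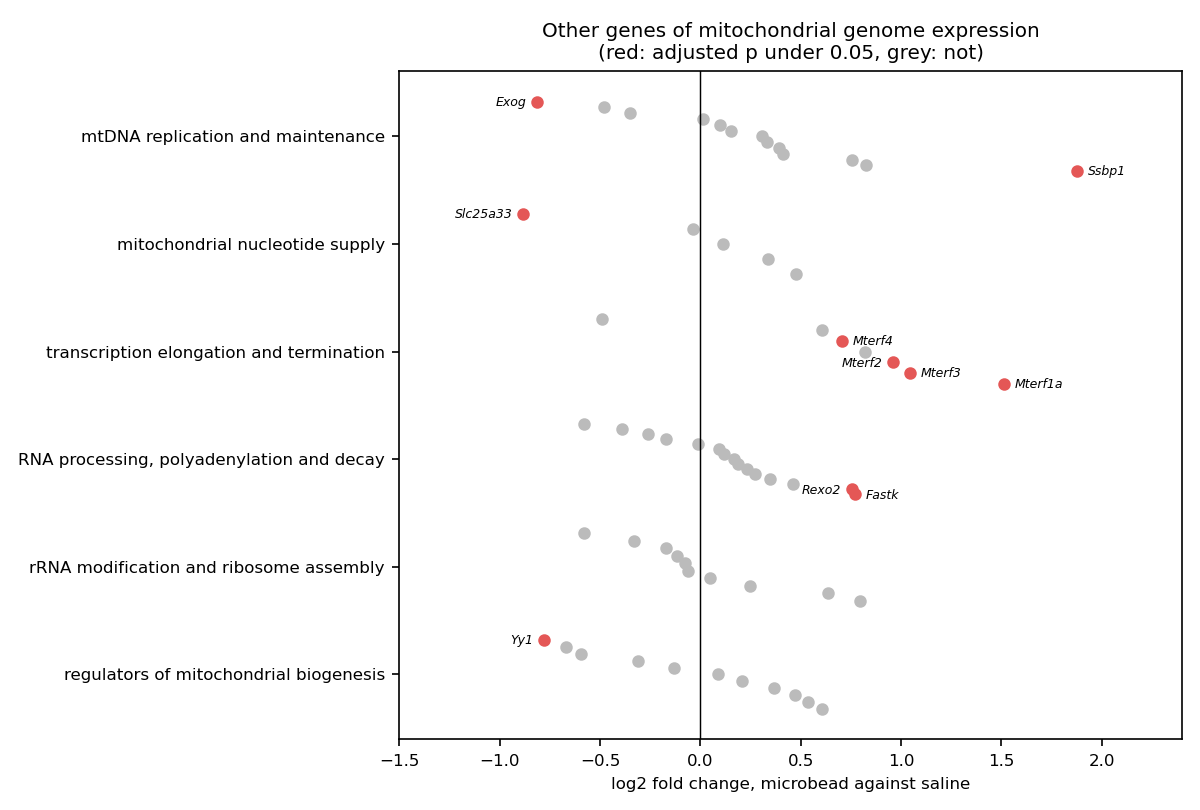
Log2 fold change, microbead against saline, of 61 other genes of mitochondrial genome expression in 6 role groups, with a point for each gene, red where the adjusted p from edgeR was under 0.05 and grey elsewhere. *Ssbp1* and *Mterf1a* lie farthest to the right, and *Slc25a33*, *Exog* and *Yy1* farthest to the left.

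The transcripts that these factors make and stabilise are the messenger RNAs of the mitochondrial genome. Summed over 13 genes they held 28258, 29094 and 34158 CPM in the saline and 106070, 85547 and 99633 CPM in the microbead retinas. Nearly all of that sum came from the 7 genes that were higher. The libraries were made from polyadenylated RNA, and how far the capture of these RNAs follows their level was not tested. The sum and the levels of *Pnpt1*, *Slirp* and *Tfb2m* were higher, while *Polrmt* overlapped and the 3 *Tfam* values lay lower. All 13 were called (12.8% of all tested genes were), 7 higher and 6 lower, and 8 without microbead replicate 3. The 6 lower genes were counted at low CPM, with saline means from 4.34 (*mt-Nd4l*) to 52.5 CPM (*mt-Co3*). Stretches shared with other loci were searched for the 10 factors and the wider list, but not for these 13 genes. A low level of the RNA and reads lost to such sharing cannot be told apart here. Saline means of the 7 higher genes ran from 1189 (*mt-Nd6*) to 9929 CPM (*mt-Co1*). The log2 fold changes of the 13 ran from -3.57 to 2.38, against -0.55 to 1.19 for the 10 factors. The lowest was that of *mt-Nd4l*, at 3, 8 and 6 counts in the microbead libraries. With a minimum of 10 counts in every library, 12 were tested and 12 called. Leaving the mitochondrial genes out of the library sizes gave the same count of 3 called factors.

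**Figure D5:**
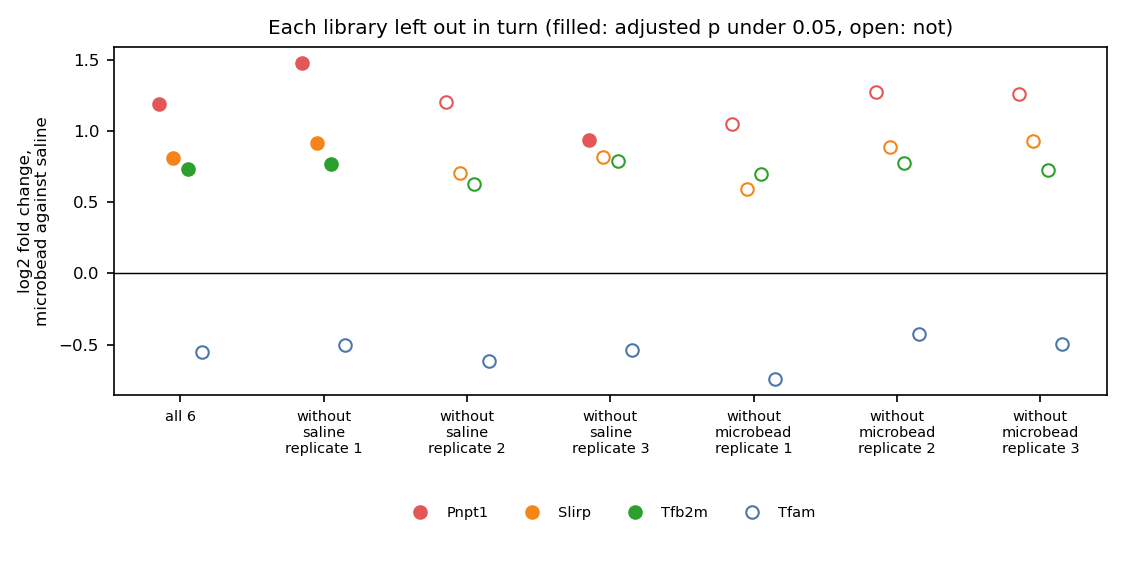
Log2 fold change of *Pnpt1*, *Slirp*, *Tfb2m* and *Tfam* with all 6 libraries and with each library left out in turn, filled where the adjusted p from edgeR was under 0.05 and open elsewhere. Each gene kept its direction in all 7 fits, while *Slirp* and *Tfb2m* were past the threshold in 1, and *Pnpt1* in 2, of the 6 fits with a library left out.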

How the data were processed

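Polyadenylated RNA of 3 saline-injected and 3 microbead-injected whole retinas was sequenced, and libraries were grouped by the treatment in the sample records. Alignment by the authors used STAR 2.5.3a against GRCm38.p5 and GENCODE vM12 gene models, featureCounts 1.15.2 counted reads per gene, and raw counts per library were deposited, per the submitters' processing notes. The same table holds the authors' DESeq2 1.14 comparison (a mean signal, a log2 fold change, its linear fold or ratio, and p-values before and after adjustment), which was not used.

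Low genes were dropped by filterByExpr (at 10 counts per library and 15 in total). After TMM scaling, edgeR 4.0.16 (R 4.3.3) gave two-sided quasi-likelihood p-values, which were adjusted by the Benjamini-Hochberg method and called under 0.05. CPM are on TMM-scaled library sizes, standard errors are the log2 fold change over the root of the F statistic, and 95% intervals use the degrees of freedom of the test. Ratios were compared by exact permutation. At the smallest library 3 counts are 0.217 CPM, and the smallest count of any of the 10 genes was 93. These limits cover counting error only. Gene models came from GENCODE vM21, which covers 99.6% of tested genes. Chi-square per degree of freedom between libraries of one group was 20.1 or more, so no library repeats another. Steps were tested on simulated data. The genes, lists and tests were chosen with earlier results of these data known. All 10 genes are named, with the smallest p of each role group of the wider list. Tried instead were DESeq2 1.42.0, limma-voom (limma 3.58.1), scaling by RLE or the upper quartile, library sizes that leave out mitochondrial or the 100 most abundant genes, all genes unfiltered, a minimum of 10 counts in each library, a replicate block, an offset for GC content and length (splines with 5 degrees of freedom) and each library left out.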

Additional observations from a re-analysis of the deposited data

How the results depend on the processing

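Of 160 values of the 10 genes under the alternatives, 135 kept their direction and side of the threshold, 18 lost the call in the same direction and 7 changed sign, all 7 for *Ppargc1a* or *Nrf1*. *Nrf1* was 0.021 with upper-quartile scaling and 0.10 with the offset for GC content and length, where *Ppargc1a* was 0.026. With a library left out, *Nrf1* was -0.085 to 0.068, being 0.030 without saline replicate 1 and 0.068 without microbead replicate 2, and *Ppargc1a* was -0.095 to 0.050, being 0.0066 without saline replicate 2 and 0.050 without microbead replicate 3. The count over all genes (2261) was 3720 without the filter, 3621 with DESeq2 and 46 to 2621 with a library left out, lowest without microbead replicate 3. With a library left out, 0 to 3 of the 10 genes, 1 to 12 of the 61 others and 8 to 13 of the mitochondrial messenger RNAs were called. The replicate numbers follow accession order and pair nothing (correlations of same-numbered libraries -0.04, 0.14 and 0.01). The replicate block gave 905 genes, 1 of the 10 (*Pnpt1*, with *Slirp* at an adjusted p of 0.0613 and *Tfb2m* at 0.0656 from edgeR) and 5 of the 61, with *Exog* (0.0761), *Fastk* (0.0662) and *Rexo2* (0.0593) among those lost. The block and the fits without a library have fewer residual degrees of freedom. The cause of these and the other changes was not tested. Reads shared by *Slirp* with its neighbours, the separate series of library identifiers and the lack of a link from retina to mouse limit what the values can show.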
